A study of Mus musculus with 6 samples.

Results

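The genes described here are 34 mouse genes of DNA replication and mitosis, taken by name from the deposited table of 20254 genes, and all 34 were found in it. The table holds RNA sequencing of whole hearts of C57BL/6 mice that were knockout (KO) for Trdn-as, a non-coding gene named for lying antisense to the triadin gene Trdn, or wild-type (WT). KO libraries 1 and 2 came from an age of 14 months and KO library 3 from 5 months, and WT libraries 1, 2 and 3 were divided between the ages in the same way, which makes 2 hearts per genotype at 14 months and 1 at 5 months. How the allele was made, the sex of the mice and whether a library stands for 1 animal are not given by the labels, so the p-values measure the spread between these samples only.

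The 34 genes fall into 5 roles. The replication genes build and run the replication fork in S phase: Mcm2 to Mcm7 encode the helicase, Cdc45 is the helicase subunit that joins it at firing, Pcna is the sliding clamp, and Rrm1 and Rrm2 are the subunits of ribonucleotide reductase, which makes the DNA precursors. The mitotic genes are transcribed later in the cycle, with the cyclin-dependent kinase Cdk1 and its cyclins driving entry into mitosis and the spindle checkpoint holding the cells until every chromosome is attached. In the adult mouse heart nearly all cardiomyocytes have left the cell cycle, and most cycling cells there are non-myocytes such as endothelial cells, fibroblasts and blood-derived cells. In whole tissue, fewer cells of a cycling type and less of these RNAs per cell cannot be told apart.

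Many of the mitotic genes are known to share promoter elements, and the promoters of 5 genes picked as examples are printed to show them. The cell cycle genes homology region (CHR, searched as TTTGAA or TTCGAA) is bound by complexes built on MuvB, which hold late cell cycle genes silent in resting cells and switch them on in dividing cells. CCAAT boxes are bound by NF-Y and often lie a short way before a CHR, and E2F sites (searched as TTTNNCGC) are typical of replication genes. In the sequences, given 5′ to 3′ on the strand of the gene from 250 bases before to 50 bases after the RefSeq start site (GRCm38.p6), capitals mark every match to these letters on either strand. Mki67 (chr7:135716330-135716629), Cdk1 (chr10:69352863-69353162), Bub1 (chr2:127831810-127832109), Ccnb1 (chr13:100786437-100786736) and the replication gene Mcm6 (chr1:128359656-128359955) all lie on the minus strand.
Mki67: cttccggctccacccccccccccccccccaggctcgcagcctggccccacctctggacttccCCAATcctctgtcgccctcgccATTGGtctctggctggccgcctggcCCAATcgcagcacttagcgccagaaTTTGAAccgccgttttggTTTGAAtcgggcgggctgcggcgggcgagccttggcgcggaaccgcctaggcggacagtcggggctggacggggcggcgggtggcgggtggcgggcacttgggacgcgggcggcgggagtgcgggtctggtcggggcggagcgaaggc
Cdk1: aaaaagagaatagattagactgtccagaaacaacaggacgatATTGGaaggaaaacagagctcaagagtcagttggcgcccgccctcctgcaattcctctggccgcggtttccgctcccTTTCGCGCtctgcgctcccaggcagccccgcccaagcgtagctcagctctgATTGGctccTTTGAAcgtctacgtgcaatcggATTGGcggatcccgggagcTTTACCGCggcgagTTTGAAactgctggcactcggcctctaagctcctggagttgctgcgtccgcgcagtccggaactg
Bub1: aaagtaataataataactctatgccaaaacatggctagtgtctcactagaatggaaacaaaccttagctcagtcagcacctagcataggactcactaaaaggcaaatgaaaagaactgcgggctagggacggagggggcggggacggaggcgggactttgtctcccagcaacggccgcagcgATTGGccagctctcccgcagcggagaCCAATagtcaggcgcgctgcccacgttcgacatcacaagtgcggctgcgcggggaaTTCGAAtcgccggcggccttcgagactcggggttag
Ccnb1: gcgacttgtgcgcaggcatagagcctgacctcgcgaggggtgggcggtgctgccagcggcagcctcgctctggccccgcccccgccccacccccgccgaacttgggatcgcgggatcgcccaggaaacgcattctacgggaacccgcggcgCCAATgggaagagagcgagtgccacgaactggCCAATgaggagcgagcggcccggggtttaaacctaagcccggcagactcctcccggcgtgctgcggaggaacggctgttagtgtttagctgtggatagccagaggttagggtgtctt
Mcm6: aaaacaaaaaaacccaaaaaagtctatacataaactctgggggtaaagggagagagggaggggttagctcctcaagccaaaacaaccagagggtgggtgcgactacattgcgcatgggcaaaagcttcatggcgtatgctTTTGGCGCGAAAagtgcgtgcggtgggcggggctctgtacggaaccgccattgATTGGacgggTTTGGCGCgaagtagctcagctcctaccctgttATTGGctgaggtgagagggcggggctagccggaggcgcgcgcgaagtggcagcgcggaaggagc
The Mki67 window holds a pair of CHR matches 116 and 98 bases before the start site, after 3 CCAAT boxes, and the Cdk1 window holds CHR matches at positions −71 and −15 with 3 CCAAT boxes and 2 E2F matches. Bub1 has its CHR match, TTCGAA, 14 bases after the start site. Ccnb1 has 2 CCAAT boxes and no CHR letters in this window. Birc5 is named beside Mki67, Cdk1, Bub1 and Ccnb1 in the results below. Its window, not printed, holds none of these letters, nor does that of Nusap1. Mcm6 has 3 E2F matches, of which 2 overlap on opposite strands in the capital run TTTGGCGCGAAA, and no CHR letters.

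A RefSeq window was found for 29 of the 34 genes, against 27025 genes in the whole table of windows, where a gene counted if any of its windows held the letters. CHR letters stood in 19 of the 29 (65.5%) and in 21.7% of all genes. Outside the replication genes they stood in 16 of 20 (80.0%), and among the replication genes in 3 of 9. CCAAT boxes stood in 26 of the 29 (89.7%), against 41.1% of all genes. A CHR and a CCAAT box stood together in 18 of the 29 (62.1%), against 8.61% of all genes. E2F letters were divided the other way, in 4 of 9 replication genes and 1 of the other 20, Cdk1, against 5.93% of all genes. These matches describe letters in a window and are not evidence of binding.

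The values are a normalized signal per gene deposited by the authors, and their totals, in units of 1e6, were 19.8 to 21.6 in KO hearts and 19.9 to 23.5 in WT hearts. The depth in reads is unknown, so no counting interval is given. Markers of cardiomyocytes were abundant, with Myh6, a cardiac myosin heavy chain, averaging 173740 in KO hearts and 253660 in WT hearts. The 10 cardiomyocyte markers summed to 673980, 779940 and 812440 in KO hearts 1, 2 and 3, and to 728240, 754240 and 1299000 in WT hearts. The 5-month WT heart thus stood apart from the rest. Trdn itself averaged 4165 ± 1248 in KO hearts and 6802 ± 1994 in WT hearts (SD, n = 3 each), lower in KO for all 3 replicate numbers. Trdn-as was not analysed here. Summed Y-linked genes read 2496, 82.2 and 4482 in KO hearts 1, 2 and 3, and 2854, 54.9 and 3895 in WT hearts, so in both genotypes heart 2 reads as female and hearts 1 and 3 as male. The 5-month hearts are therefore both male, and sex and age are partly confounded.

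The cell cycle genes were expressed at low levels. Of the 34, 22 had a mean value under 50 over the 6 hearts and 26 under 100, although none was at 0 in any library. Per kb of exon, their median level was 8.50, against 54.7 over all genes tested, and 33 of the 34 lay under that median; only Pcna, at 224 per kb, lay above it. By role, the median level per kb was 28.7 for the replication genes, 7.33 for the cytokinesis genes, and 4.05 for the mitotic cyclins and kinases. Cenpf, a large kinetochore protein, had the highest level per kb outside the replication genes, at 54.3, and Cenpe, a kinetochore motor, the lowest of all, at 2.81. The median percentile among annotated genes was 39.3 on the same per-length scale. The plot of levels per kb shows the roles side by side.

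**Figure D1:**
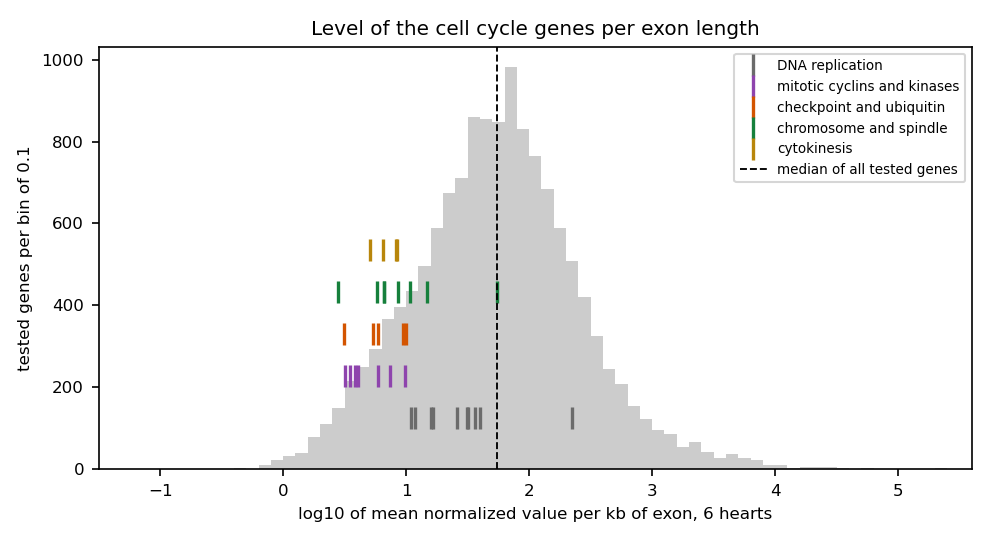
The x axis is the log10 of the mean value per kb of exon over the 6 hearts, the grey bars are the numbers of tested genes in bins of 0.1, and the coloured ticks are the 34 cell cycle genes by role (their height has no meaning). The ticks lie left of the dashed median of tested genes, at 54.7 per kb, except that of Pcna.

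Together the 34 genes summed to 2638, 3425 and 2913 in KO hearts 1, 2 and 3, and to 3625, 3342 and 4118 in WT hearts 1, 2 and 3. The sums of the genotypes overlap, and Cenpf, Pcna and Rrm1 are their 3 largest terms in every heart. Without the replication genes the sums were 1175, 1760 and 1322 in KO hearts, and 2229, 1518 and 1964 in WT hearts. The next paragraphs take the genes by role, with the value in each heart given in the order of hearts 1, 2 (14 months) and 3 (5 months). All 34 appear in the plot of values by heart.

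**Figure D2:**
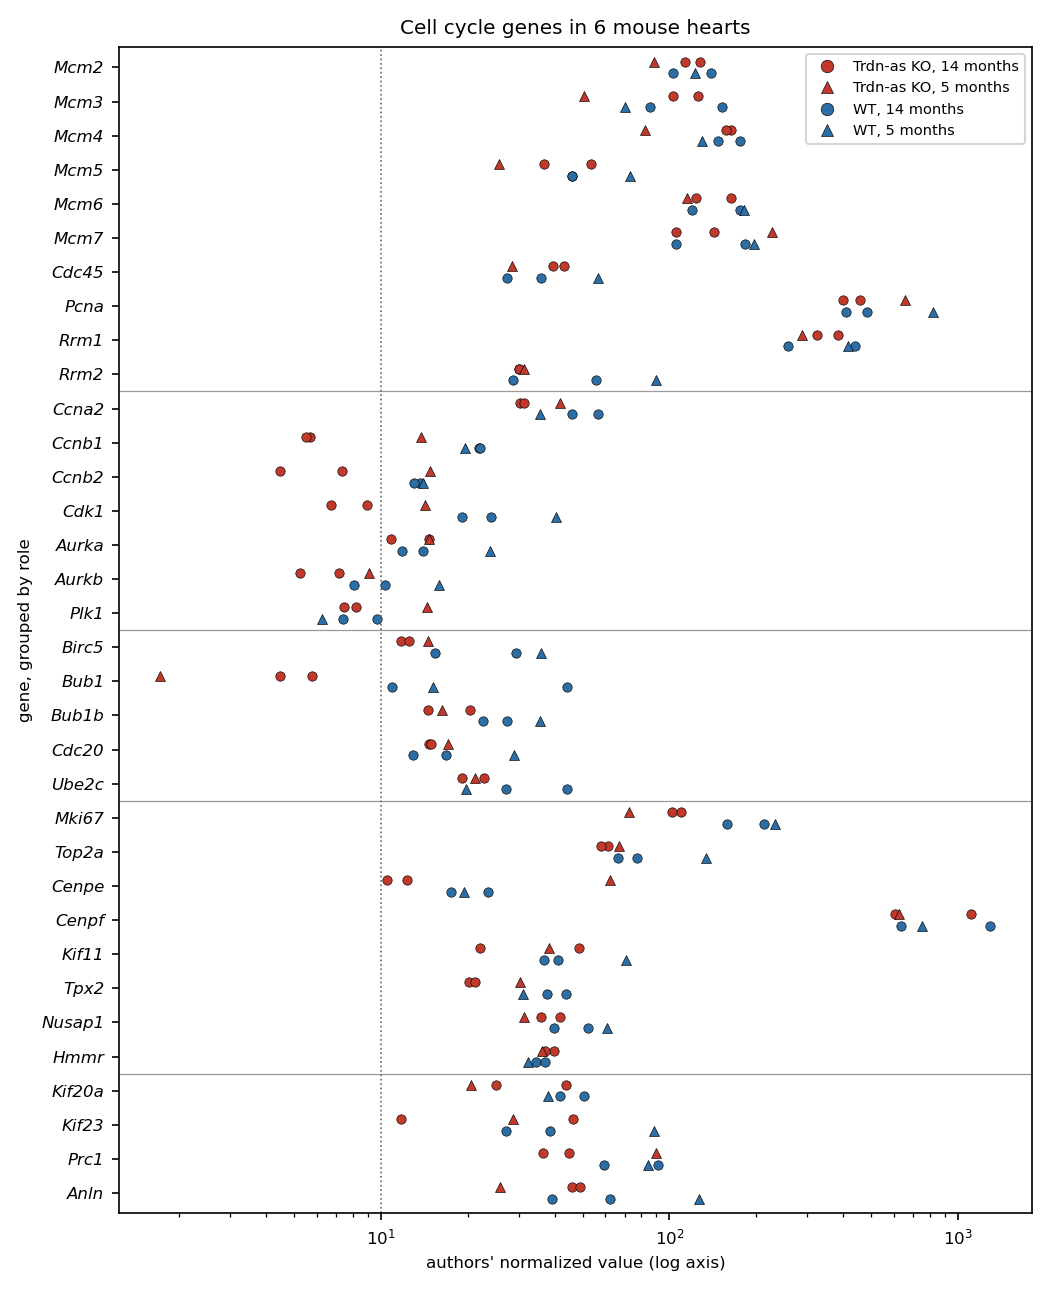
Each row is a gene, grouped by role, and each point is the authors' normalized value in 1 heart on a log axis, with KO in red above WT in blue, circles for 14 months and triangles for 5 months. The dotted line at 10 is the value a gene had to reach in 3 or more hearts to be tested; Cdk1, Ccnb1, Bub1, Bub1b, Birc5, Mki67 and Tpx2 show every red point left of every blue point.

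The comparison of KO with WT asks which of these genes differ with loss of Trdn-as, with age held as a covariate. All mitotic genes but Plk1, Cenpe and Hmmr had lower means in KO hearts, led by Bub1, Cdk1, Ccnb1, Mki67 and Birc5, whose KO means were 17.1 to 48.2% of the WT means (n = 3 each). The replication genes other than Rrm2 and Mcm5 had KO means of 84.7 to 97.7% of the WT means. None of these differences passed the test over all genes. No gene of the table passed an adjusted p under 0.05 by limma (0 of 13823 tested, percent called 0.0, smallest adjusted p = 0.226), and none of the 32 cell cycle genes tested did (smallest adjusted p = 0.745). At an unadjusted p under 0.05 there were 841 genes in the table, and limma-voom also called 0. The fold changes that follow are log2 differences of value + 1 from that fit, KO minus WT, with the limma standard error (SE), and none of them is a call.

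Among the mitotic cyclins and kinases, Cdk1, the kinase that triggers mitosis, had 6.70, 8.97 and 14.2 in KO hearts, against 19.1, 24.1 and 40.5 in WT hearts. Every KO heart lay below every WT heart, and the KO mean was 35.7% of the WT mean (−1.39 on the log2 scale, SE 0.35, with a limma adjusted p = 0.745). Ccnb1, the B-type cyclin that activates Cdk1, had 5.66, 5.50 and 13.8 in KO hearts, against 21.9, 22.1 and 19.5 in WT hearts. It too did not overlap between genotypes, with the 5-month KO heart nearest to WT (log2 fold change −1.36, SE 0.43). Ccnb2, the other B-type cyclin, had 7.35, 4.49 and 14.8 in KO hearts, against 13.6, 13.1 and 13.9 in WT hearts. Its low values were the 14-month KO hearts alone, while the 5-month KO heart lay above all WT hearts. Ccna2, the cyclin of S and G2 phase, had 30.4, 31.3 and 41.7 in KO hearts, against 56.4, 46.1 and 35.6 in WT hearts. Its 5-month KO heart lay above the 5-month WT heart and below both WT hearts of 14 months. At 14 months both KO hearts lay below both WT hearts for each of Cdk1, Ccnb1, Ccnb2 and Ccna2, and for 13 of the 32 tested genes in all, against 17.9% of all tested genes.

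The other 3 kinases act at the spindle poles and on the chromosomes. Aurka, which acts at the centrosomes, had 14.7, 10.8 and 14.7 in KO hearts, against 11.9, 14.0 and 24.0 in WT hearts, with overlapping groups (log2 fold change −0.24, SE 0.38). Aurkb, the kinase of the chromosomal passenger complex, had 5.24, 7.17 and 9.12 in KO hearts, against 8.07, 10.3 and 15.9 in WT hearts, and was too low to be tested; the KO value was the lower for each replicate number. Plk1, a kinase needed for bipolar spindles, was also too low to be tested, with 7.43, 8.19 and 14.5 in KO hearts and 7.36, 9.73 and 6.25 in WT hearts. No other kinase of the 34 genes had a higher mean in KO than in WT hearts, and the higher mean of Plk1 rests on the 5-month KO heart.

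Of the checkpoint and ubiquitin genes, Bub1, a kinase of the spindle checkpoint, had 4.46, 5.79 and 1.72 in KO hearts, against 10.9, 44.1 and 15.1 in WT hearts. The groups did not overlap, and the KO mean was 17.1% of the WT mean, with WT heart 2 far above the others (log2 fold change −2.14, SE 0.59). Bub1 reached the test only through its WT values, all KO values being under 10, so it could enter only by differing. Its relative Bub1b, which encodes the checkpoint protein BubR1, had 14.6, 20.3 and 16.3 in KO hearts, against 27.4, 22.7 and 35.6 in WT hearts, again without overlap (log2 fold change −0.70, SE 0.33). Birc5, or survivin, a subunit of the chromosomal passenger complex, had 11.8, 12.5 and 14.6 in KO hearts, against 15.4, 29.4 and 36.0 in WT hearts. The KO hearts were close together and below the WT hearts, which ranged widely (log2 fold change −0.92, SE 0.38). The partners of the anaphase-promoting complex had smaller fold changes. Cdc20, which brings it its mitotic targets, had 14.7, 14.9 and 17.1 in KO hearts, against 16.8, 12.9 and 28.9 in WT hearts. Ube2c, its ubiquitin-conjugating enzyme, had 19.1, 22.8 and 21.1 in KO hearts, against 44.3, 27.2 and 19.7 in WT hearts. Both overlapped between genotypes, with log2 fold changes of −0.24 (SE 0.36) for Cdc20 and −0.44 (SE 0.35) for Ube2c.

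In the chromosome and spindle group, Mki67, which coats mitotic chromosomes and is the usual marker of cycling cells, had 110.1, 102 and 72.4 in KO hearts, against 212, 158 and 233 in WT hearts. It was the most separated of the 34 genes by limma's unadjusted p, with a KO mean of 47.1% of the WT mean (−1.08 on the log2 scale, SE 0.23, with a limma adjusted p = 0.745). Tpx2, which nucleates spindle microtubules and activates Aurka, had 20.2, 21.2 and 30.4 in KO hearts, against 37.6, 43.9 and 31.2 in WT hearts. Its groups did not overlap, but the 5-month hearts were nearly equal (log2 fold change −0.64, SE 0.31). Top2a, the topoisomerase that untangles sister chromosomes, had 61.5, 57.8 and 66.6 in KO hearts, against 66.1, 77.2 and 134 in WT hearts (log2 fold change −0.50, SE 0.23). Its groups overlapped by a margin of less than 1 unit, between KO heart 3 and WT heart 1. Nusap1 and Kif11, a microtubule-bundling protein and a spindle motor, had log2 fold changes of −0.47 (SE 0.27) and −0.44 (SE 0.34), with overlapping values.

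Cenpe, Cenpf and Hmmr gave other orders of the hearts. Cenpe had 12.3, 10.5 and 62.2 in KO hearts, against 23.4, 17.5 and 19.5 in WT hearts. Both 14-month KO hearts lay below all WT hearts and the 5-month KO heart above all of them, so the fitted change was near 0 (0.02, SE 0.51). Cenpf had 603, 1113 and 625 in KO hearts, against 1297, 633 and 753 in WT hearts. KO heart 2 and WT heart 1 were the high ones, so that the sign of the same-number difference changes between replicates 1 and 2. Hmmr, a spindle and hyaluronan-binding protein, had 40.0, 37.2 and 36.1 in KO hearts, against 34.6, 36.9 and 32.3 in WT hearts. Its highest and lowest hearts lay closer, as a ratio, than those of any other of the 34 genes, and with Cenpe it was one of the 2 tested genes above 0 (log2 fold change 0.12, SE 0.25).

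Of the cytokinesis genes, Anln, or anillin, which organizes the contractile ring, had 45.9, 49.0 and 26.0 in KO hearts, against 39.1, 62.3 and 127 in WT hearts. The 5-month hearts held its lowest and its highest value. Kif23, a motor of the central spindle, had 11.7, 46.5 and 28.7 in KO hearts, against 38.5, 27.2 and 88.6 in WT hearts, where KO heart 2 lay above WT heart 2. Kif20a, another central spindle motor, had 25.0, 43.7 and 20.5 in KO hearts, against 41.9, 50.6 and 38.0 in WT hearts. It was lower in KO for all 3 replicate numbers, with some overlap. Prc1, which bundles the central spindle, had 44.8, 36.4 and 90.0 in KO hearts, against 91.4, 59.4 and 84.4 in WT hearts, where the difference lay in the 14-month hearts. The log2 fold changes of the 4 genes ran from −0.54 to −0.83 with SE of 0.29 to 0.51, wide enough that each 95% interval held 0.

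Most of the replication genes had fold changes near 0. Pcna had 401, 459 and 655 in KO hearts, against 409, 484 and 819 in WT hearts (log2 fold change −0.14, SE 0.13). Mcm2 had 113, 128 and 88.3 in KO hearts, against 103, 139.9 and 123 in WT hearts (−0.16, SE 0.20). At 14 months the genotypes were close for both, and the 5-month hearts gave most of the difference. The log2 fold changes of Mcm3, Mcm4, Mcm5, Mcm6 and Mcm7 were −0.16, −0.22, −0.52, −0.23 and −0.05, with SE of 0.19 to 0.35. Mcm5 had the lowest of these values, and its genotypes were the farthest apart in the 5-month hearts, with 25.6 in the KO heart and 72.9 in the WT heart. Cdc45 and Rrm1 lay at −0.07 (SE 0.34) and −0.13 (SE 0.23). Rrm2, the regulated subunit of the reductase, had 30.0, 30.2 and 31.3 in KO hearts, against 28.7, 55.8 and 90.1 in WT hearts. Its KO hearts were nearly equal, and WT hearts 2 and 3 lay above them while WT heart 1 did not (log2 fold change −0.77, SE 0.35).

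**Figure D3:**
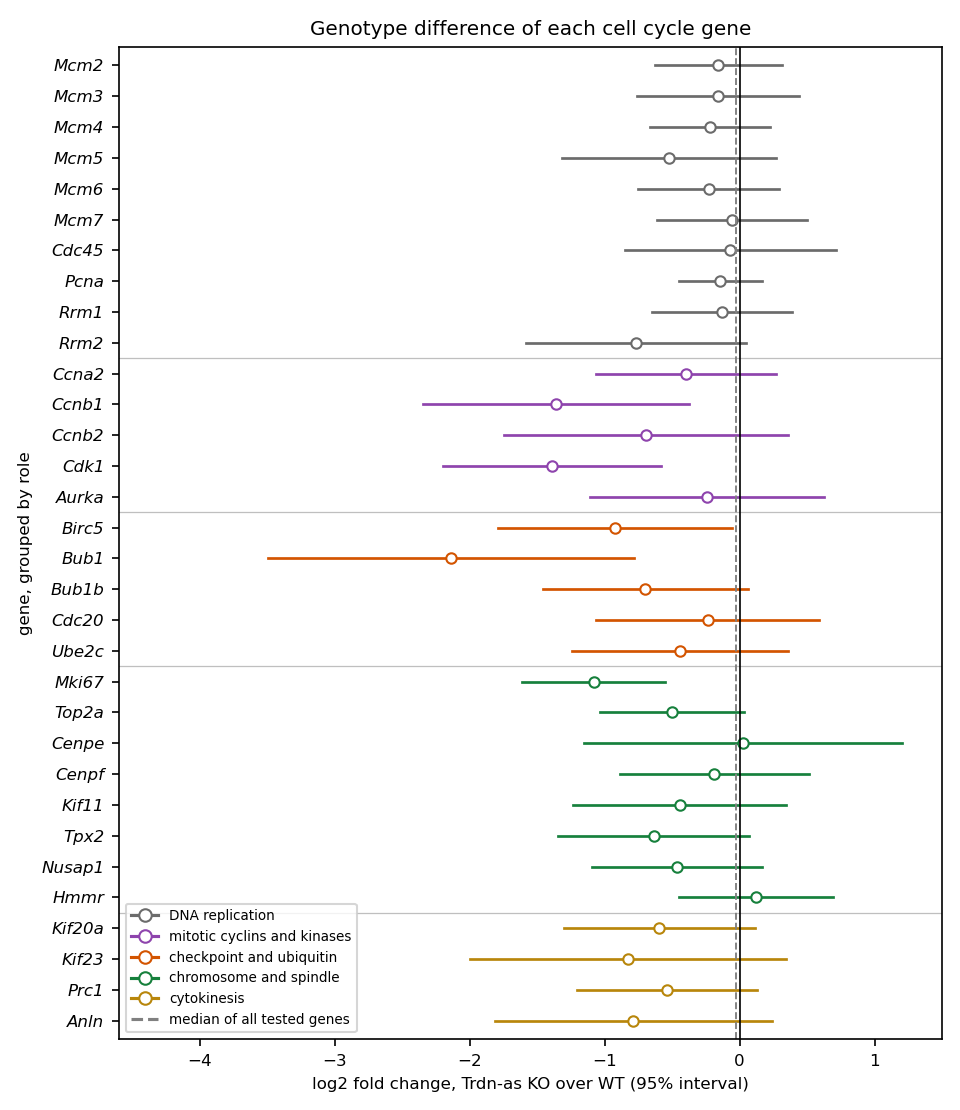
Points are the log2 fold changes of KO over WT from the limma fit with age as covariate, and bars are their 95% intervals, for the 32 cell cycle genes tested, by role; Aurkb and Plk1 were too low to be tested. The intervals of Ccnb1, Cdk1, Birc5, Bub1 and Mki67 end below 0, 8 of the 10 replication genes lie between −0.23 and −0.05, near the dashed median of all genes (−0.02), and no gene passed the adjusted threshold.

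Counted together, 30 of the 32 tested genes had a fold change below 0, where 53.9% of all tested genes did. Their median log2 fold change was −0.46, against −0.02 over all genes, and it was −0.24 without KO heart 3 or without WT heart 3. At an unadjusted p under 0.05, 5 were lower in KO, Mki67, Cdk1, Bub1, Ccnb1 and Birc5, against 2.87% of all tested genes, and none was higher, against 3.21%. All KO values lay below all WT values for 7 genes (21.9%), those 5 with Tpx2 and Bub1b, against 2.89% of all tested genes, and in none were all KO values above all WT values, against 2.88%. Bub1 is in both counts although it could enter the test only by differing. Over the 31 other genes they are 4 and 6. These still hold Cdk1 and Ccnb1, which reached 10 in all 3 WT hearts but in only 1 KO heart each. Their WT values alone met the filter and their KO values alone did not. The counts of 4 and 6 are therefore not free of selection for high WT values. The count of 7 was 12 without KO heart 3, against 10.5% of all tested genes, and 12 without WT heart 1, against 5.95%. KO was below WT for all 3 replicate numbers in 10 genes, against 14.6% of all genes. The genes were chosen because they belong to 1 process, but with earlier results of these data known. Their values are also not independent of each other, so no test was made over the list. For all 34 genes, with no filter on low values, 31 had a fold change below 0.

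Described by role, the medians were unequal. The median log2 fold change was −0.16 over the 10 replication genes, all of them below 0, and −0.57 over the 22 others, of which 20 were below 0. By role the medians outside replication were −0.69 for mitotic cyclins and kinases, −0.70 for checkpoint and ubiquitin genes, −0.46 for chromosome and spindle genes and −0.69 for cytokinesis genes. In the 14-month hearts alone, the replication median was −0.02 and that of the others −0.61. Between the 5-month hearts, 1 per genotype, they were −0.58 and −0.79. The replication median thus lay near 0 at 14 months and below 0 at 5 months, and that of the other genes below 0 at both ages. Whether the ages differ was tested gene by gene, as the third comparison. Divided by level instead of role, the 20 tested genes with a mean under 50 had a median of −0.56 (median SE 0.35), where all genes at that level had 0.06. The 12 higher ones had −0.20 (median SE 0.23), where all genes at that level had −0.03. Most replication genes were among the 12 and most of the others among the 20, so role and level overlap largely. With a filter at 50 in 3 hearts, which kept 11 of the genes, the replication median was −0.16 and that of the others −0.52. The replication genes with a mean under 50, Mcm5, Rrm2 and Cdc45, lay at −0.52, −0.77 and −0.07. The parts of role and level were not tested.

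The wider cell cycle machinery was examined through 183 other genes in 9 lists, of which 156 were tested. Of these, 0 passed the threshold in KO against WT. Below 0 lay 108, where 53.9% of all tested genes did, and their median was −0.10, against −0.02 over all genes. At an unadjusted p under 0.05 by limma, 8 were lower and 1 was higher, against 2.87% and 3.21% of all tested genes. The list nearest to the mitotic genes above was that of other spindle, centrosome and cytokinesis genes, with 13 of 18 below and a median of −0.26. G1 cyclins and kinases had 10 of 12 below and a median of −0.22, with Ccnd1, the cyclin D1 that opens G1, at −0.47 (SE 0.19), and Ccnd2 at −0.28. Kinetochore and spindle checkpoint genes lay at −0.03, E2F, pocket protein and MuvB genes at −0.01, cohesin and condensin genes at −0.04, and genes of origin licensing and the fork at −0.08. Nucleotide supply genes lay at −0.09, anaphase-promoting complex genes at −0.10 and CDK inhibitors at −0.18. The median levels per kb of these lists ran from 3.36 for the spindle list to 79.4 for the anaphase-promoting complex. The kinetochore and spindle checkpoint list, at −0.03, was also low, with 5.81 per kb. The part of level in these medians was not tested.

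**Figure D4:**
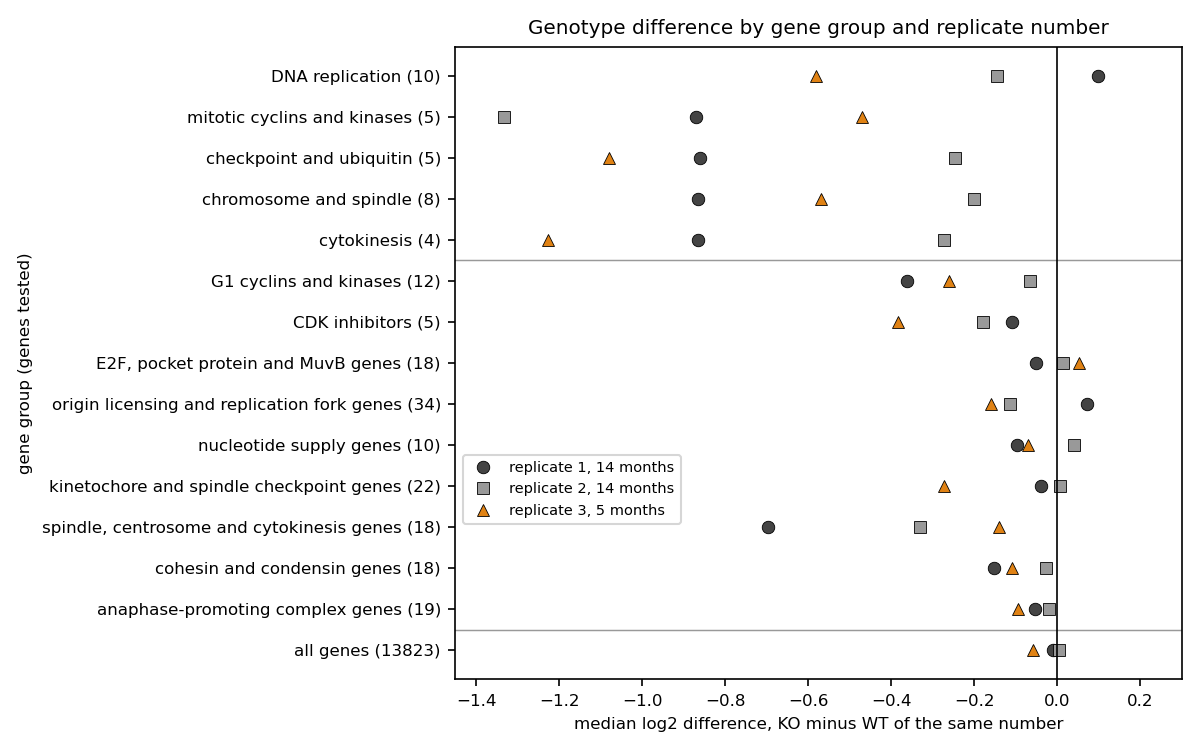
Points are the median over genes of the log2 difference between the KO and the WT heart of the same number, for the 5 roles (top), the 9 other cell cycle lists (middle) and all tested genes (bottom); circles and squares are replicates 1 and 2 at 14 months and triangles replicate 3 at 5 months. The 4 mitotic roles lie between −1.33 and −0.20 in every replicate, replication lies at 0.10, −0.15 and −0.58, and the other lists lie between −0.70 and 0.07.

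Several marker lists of cell types in the heart had medians below 0 as well. Of 10 fibroblast markers, 10 lay below 0 in KO, with a median of −0.33, and their summed level was 19114 to 40093 in KO hearts and 34722 to 40747 in WT hearts. The low sum was that of the 5-month KO heart, and by replicate number the fibroblast medians were 0.06, −0.22 and −0.84. Of 10 macrophage markers, 9 lay below 0, with a median of −0.22 and sums of 5208 to 7440 in KO hearts and 6025 to 7894 in WT hearts. The 5 tested erythroid markers lay below 0, with a median of −1.13 and sums of 2730 to 19408 in KO hearts and 6792 to 66934 in WT hearts, but with opposite signs between replicates (−2.82, 1.52 and −2.18). Of 10 cardiomyocyte markers, 9 lay below 0 (median −0.29), their sums being 673980 to 812440 in KO hearts and 728240 to 1299000 in WT hearts. Endothelial and smooth muscle and pericyte markers had medians of −0.09 and −0.08, with 8 of 10 and 7 of 9 below, while adipocyte markers lay at 0.70 and mesothelial markers at 0.31. Signs differed between replicates in both of the latter, with medians of 1.01, 1.38 and −1.04 for adipocyte and 0.50, −0.61 and 1.08 for mesothelial markers. The part of these markers in the cell cycle values was not tested.

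Markers of blood cells that divide in marrow or thymus ranged from 0 to well above the filter. S100a9, a neutrophil calcium-binding protein, had 12.8, 12.2 and 94.0 in KO hearts, against 5.84, 8.68 and 33.8 in WT hearts, higher in KO for all 3 replicate numbers. Ltf, a granule protein of neutrophils, reached 110.0 in 1 heart, and Slc4a1, the anion exchanger of red cells, 73.0. Kit, a receptor of blood progenitors, had 67.5, 90.8 and 41.0 in KO hearts, against 80.0, 96.4 and 125 in WT hearts. Cd34, which endothelial cells also express, had 1479 to 2154 in KO hearts and 1924 to 2340 in WT hearts. Other genes of these lists were at or near 0. The neutrophil granule genes Ngp and Camp stayed under 1 in every heart and were at 0 in 4 and 3 of them. The thymocyte genes Rag2 and Ptcra were at 0 in 5 and 3 hearts and reached 1.83 and 2.11 at most. The erythroblast genes Hemgn and Klf1 were at 0 in 4 and 2 hearts. In KO hearts 1, 2 and 3 the neutrophil list summed to 145, 43.4 and 205, against 45.0, 62.1 and 63.1 in WT hearts, and the T and natural killer cell list to at most 84.9 in any heart. Mpo, Elane, Ahsp, Rag1 and Dntt were not analysed here.

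Some of the genes share sequence with others, which touches how reads are assigned. Of the 31-base words in the transcripts of Ccnb1, 27.7% also occur in other annotated genes, mostly the pseudogene Ccnb1-ps, as do 26.8% of those of Mcm7, 25.5% of Cdc20, 23.3% of Pcna and 14.8% of Plk1. The values of these 5 genes are uncertain, by an amount that was not measured. For Mki67 the share was 1.26%, and for Cdk1, Bub1 and Bub1b it was 0.

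The second comparison, 14 months against 5 months with genotype as covariate, set 4 hearts against 2. In all, 4663 of 13823 genes passed an adjusted p under 0.05 by limma (percent called 33.7, with 17.7% higher and 16.0% lower), and 3 of the 32 cell cycle genes did (9.375%), a smaller share than over the table. All 3 were replication genes in this fit. Mcm3, a helicase subunit, had 103 and 125 in the 14-month KO hearts and 152 and 85.8 in the 14-month WT hearts, against 50.6 and 69.9 in the 5-month KO and WT hearts. It rose to 116 ± 28.7 at 14 months (SD, n = 4), against 60.3 at 5 months (mean, n = 2), a log2 difference of 0.92 (SE 0.27, adjusted p = 0.034 by limma). Mcm4, another helicase subunit, had 164, 158, 147 and 176 at 14 months, against 82.2 and 130.0 at 5 months, in the same order of hearts. It rose to 161 ± 12.1, against 106 (log2 difference 0.63, SE 0.21, adjusted p = 0.046 by limma). The ages did not overlap for either gene. Pcna, whose values are given above, fell to 438 ± 39.8, against 737 (log2 difference −0.74, SE 0.14, adjusted p = 0.0061 by limma). Mcm7 averaged 134 ± 36.8 at 14 months and 211 at 5 months, but did not pass (−0.69, SE 0.26, limma adjusted p = 0.071). The other Mcm subunits, which act with them in 1 complex, lay between these values, from −0.01 for Mcm6 to 0.20 for Mcm2. Pcna passed with any 1 heart left out. Without KO heart 3, Mcm3 and Mcm4 were 0.70 and 0.31 (limma adjusted p = 0.181 and 0.296), and Top2a and Anln passed as lower at 14 months. Mcm3 and Mcm4 were also lost without KO heart 1 or KO heart 2, Mcm3 without WT heart 1 or WT heart 3, and Mcm4 without WT heart 2. Kif23 passed without KO heart 2, Mcm7 without WT heart 2, and Prc1 and Cenpe without WT heart 3, so the genes called besides Pcna change with the hearts.

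The 22 tested genes outside replication had a median of −0.37 with 15 below 0, while all genes had a median of 0.02 with 48.5% below 0. The largest of these values belonged to Cenpe (−1.15, SE 0.54), Kif23 (−0.85, SE 0.54), Cdk1 (−0.84, SE 0.37) and Bub1 (0.84, SE 0.62), none past the threshold. Mki67 averaged 146 ± 50.9 at 14 months and 153 at 5 months, a log2 fold change of 0.10 (SE 0.24). All 4 hearts of 14 months lay below both hearts of 5 months for Pcna, Mcm7, Ccnb2 and Cdc20 (4 of 32, where 25.0% of all genes did so), and above both for Mcm3 and Mcm4 (2 of 32, where 25.7% did). The age comparison also holds the difference in sex described above, and the WT heart of 5 months stands apart in its cardiomyocyte sum. Without heart 2 of both genotypes, which leaves only hearts that read as male, the log2 difference was 0.58 for Mcm4 and −0.99 for Mcm7.

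**Figure D5:**
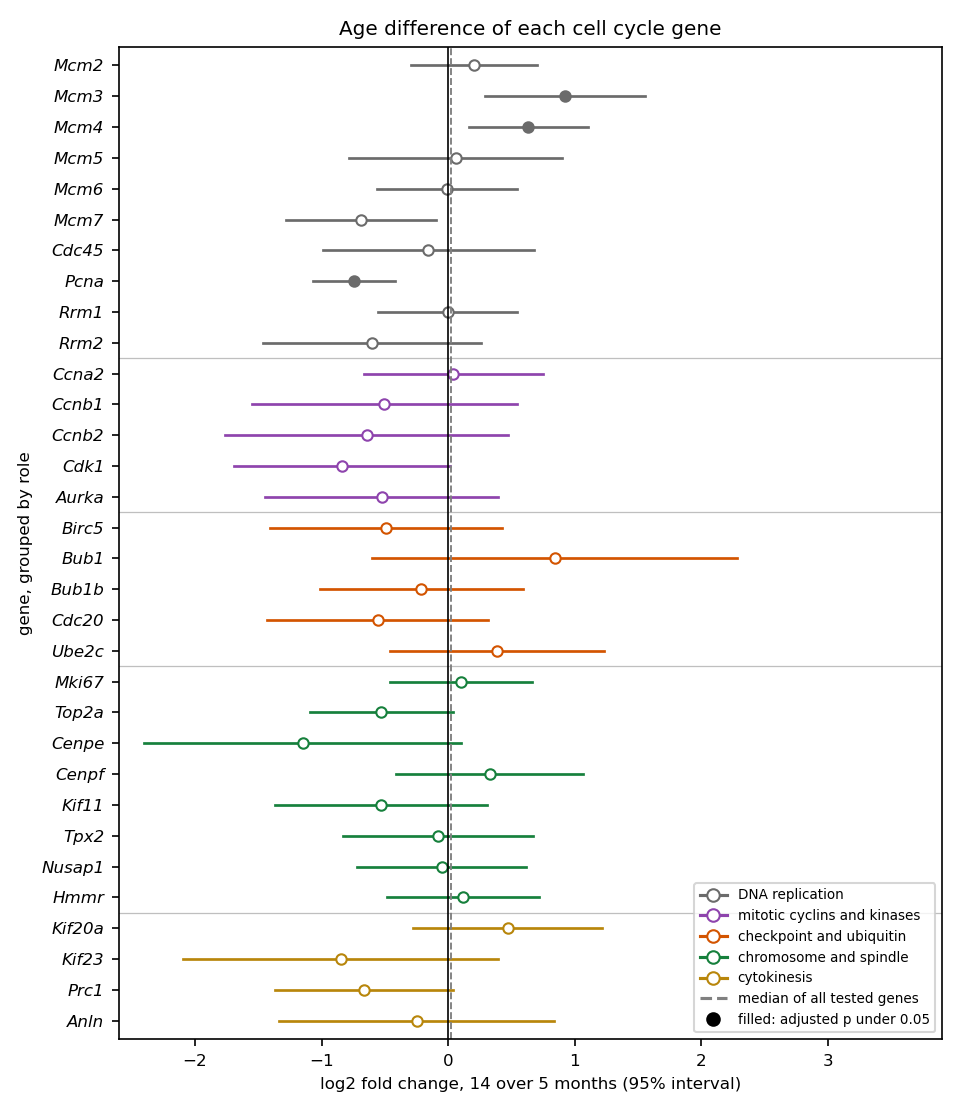
Points are the log2 fold changes of 14 over 5 months from the limma fit with genotype as covariate, and bars their 95% intervals, for the 32 cell cycle genes tested, by role; filled points passed an adjusted p under 0.05. Mcm3 and Mcm4 are filled on the right, Pcna on the left, and the remaining intervals, except that of Mcm7, hold 0.

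Of the 156 other cell cycle genes tested, 11 were higher and 27 lower at 14 months by the same limma threshold, where 17.7% of all tested genes were higher and 16.0% lower. The share of lower genes is thus near that of the table, and the share of higher genes is under it. Higher at 14 months were the CDK inhibitor Cdkn1a, or p21, at 1.14 (SE 0.22), the D-type cyclins Ccnd3 at 0.66 (SE 0.14) and Ccnd1 at 0.65 (SE 0.20), and the E2F genes E2f8 at 1.24 and E2f4 at 0.67. Cad, which starts pyrimidine synthesis, was higher at 1.25 (SE 0.18). Lower at 14 months were Gmnn, or geminin, the inhibitor of origin licensing, at −1.04 (SE 0.13), and Tipin, a fork protection factor, at −1.65 (SE 0.23). The CDK inhibitors Cdkn2c and Cdkn1c were lower, at −0.80 and −0.74. Of 19 anaphase-promoting complex genes 7 were lower (16.0% of all tested genes were), among them Anapc13 at −1.53 and Anapc15 at −1.35, and 1, Cdc23, was higher at 0.58.

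The third comparison asked whether the genotype difference at 14 months departs from that at 5 months, where there is 1 heart per genotype. In all, 287 genes passed by limma (percent called 2.08), and 0 of the 32 cell cycle genes (smallest adjusted p = 0.0755), with 4 above 0 and 1 below at an unadjusted p under 0.05, against 13.1 and 10.2% of all genes. limma-voom called 1 of them, Cenpe. Anln came nearest, where KO minus WT was higher by 2.19 at 14 months than at 5 months (SE 0.52): it was near 0 at 14 months, while at 5 months the WT heart was the highest of all 6 and the KO heart the lowest. Cenpe went the other way at −2.40 (SE 0.64, limma adjusted p = 0.094). Mcm5 and Cdc45 lay at 1.42 (SE 0.51) and 1.35 (SE 0.51), and Mki67 at 0.89 (SE 0.35). Of the 32, 9 lay below 0, against 46.6% of all genes. By role the median was 0.60 for replication genes, with 9 of 10 above 0, against 0.05 over all genes. It was 0.57 for checkpoint and ubiquitin genes, 0.38 for chromosome and spindle genes and 0.77 for cytokinesis genes. Only mitotic cyclins and kinases had a median below 0, at −0.93, with 3 of 5 genes below 0. Over the 22 tested genes outside replication the median was 0.44, with 14 above 0. These medians carry the values of KO heart 3 and WT heart 3 alone on the 5-month side. The number of genes past the threshold over the whole table was 15 without WT heart 1 and 13 without WT heart 2, each of 14 months.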

How the data were processed

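RNA of whole hearts was extracted with Trizol and sequenced as Illumina libraries, per the labels' protocols. The tools named in the submitters' processing notes are Salmon 1.5.2 and the build mm10; how the values were normalized is not stated in those notes. The deposited values are a normalized signal per gene and not counts: they are not whole numbers, and the median ratio of each library to the geometric mean of all 6 is 1.00 to 1.01. Read depth is therefore unknown, and low values carry counting error that cannot be separated from animal differences.

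Of the table's rows 20254 were kept and 108 broken lines left out; 20122 identifiers were matched to GENCODE M21 (GRCm38) for symbols, positions and merged exon lengths. limma 3.58.1 in R 4.3.3 was fitted over log2(value + 1) with trend and robust options, keeping 13823 genes with values of at least 10 in any 3 hearts and leaving out 6431, with Benjamini-Hochberg adjustment over all of them at 0.05. One model held genotype and age, another their interaction. The fit was also run on simulated data with independent normal noise of the fitted variance. That run meets the assumptions of the fit, so it does not test sex, outlying hearts or counting error. The 32 cell cycle genes that pass this filter are read against all tested genes; Aurkb and Plk1 do not pass. Fold changes of low genes are understated by the added 1.

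The 34 genes and all other lists were chosen with earlier results of these data known. Named genes outside the 34 were the called genes of each list, at most 6, and its 2 most abundant. Promoter letters were searched on both strands of RefSeq windows (GRCm38.p6), and shared sequence was counted in words of 31 bases. Alternatives covered the pseudocount, the filter, scaling, the variance model, single hearts, the 14-month hearts alone and the replicate number as a block. Hearts of the same number deviated together from their genotype means (correlations of 0.39, 0.38 and 0.62 for numbers 1, 2 and 3), but those of numbers 1 and 2 did so as much when crossed (0.37 and 0.38), and number 3 is the 5-month age in both genotypes; the difference of hearts 1 and 2 correlated between genotypes at 0.015.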

Additional observations from a re-analysis of the deposited data

Results flagged for a closer look

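Among the 4 hearts of 14 months, Rrm2 and Bub1 each had 1 heart far from the rest. WT heart 2 had 55.8 for Rrm2, where the other 3 hearts had 28.7 to 30.2, and 44.1 for Bub1, where the others had 4.46 to 10.9. In both the gap to the nearest heart, divided by the range, passed Dixon's critical value for 4 samples (quotients of 0.947 for Rrm2 and 0.838 for Bub1). With 34 genes examined, chance alone flags about 1 in 20. Heart 2 of each genotype is the one that reads as female; its part in these values was not tested.

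Outside the 34 genes, the genotype difference of 2 other cell cycle genes departed between the ages by the interaction test of limma. Cdk6, a kinase of G1, had 194, 232 and 701 in KO hearts 1, 2 and 3, against 261, 421 and 168 in WT hearts. The 5-month KO heart was its highest and the 5-month WT heart its lowest, which gives a difference of −2.70 (limma adjusted p = 0.0393). Rfc5, a subunit of the clamp loader, had 69.0, 67.1 and 59.0 in KO hearts, against 48.4, 60.1 and 252 in WT hearts. The 5-month WT heart stood alone, which gives 2.40 (limma adjusted p = 0.0362). Each rests on 1 heart per genotype at 5 months.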

How the results depend on the processing

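In KO against WT, 24 of the 32 genes kept the sign of their fold change under every alternative run, among them Mki67 (−1.31 to −0.79), Cdk1 (−1.61 to −1.12), Bub1 (−2.75 to −1.51) and Ccnb1 (−1.82 to −1.03). In the 14-month hearts alone the sign turned for Mcm2 (0.0011), Cdc45 (0.38), Rrm1 (0.067), Cdc20 (0.0074) and Cenpe (−0.78). It also turned for Mcm7 with limma-voom (0.041) and without replicate 2 of both genotypes (0.10), and for Cenpe with quantile normalization (−0.10). Leaving out 1 heart, or both of replicate 2, gave −0.33 to 0.0011 for Mcm2, −0.51 to 0.031 for Mcm3, −0.24 to 0.21 for Mcm7, −0.30 to 0.38 for Cdc45, −0.41 to 0.067 for Rrm1, −0.46 to 0.0074 for Cdc20, −0.78 to 0.38 for Cenpe and −0.69 to 0.098 for Cenpf. The cause was not tested.

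The median of the cell cycle genes was −0.24 in the 14-month hearts alone and −0.19 with a filter at 50, where 11 of 11 genes lay below 0; leaving out 1 heart gave −0.53 to −0.24, the nearest to 0 without KO heart 3 or WT heart 3. The number whose groups do not overlap was 8 to 12 with 1 heart left out (5.75 to 10.5% of all genes). It was 12 without replicate 2 (9.3%) and 13 at 14 months alone (17.9%). Fewer hearts enter these fits, and the 7 named genes were among them each time. With the filter at 50 it was 1 of 11 genes, Mki67 (9.09%, against 2.71% of all genes). The share was 21.9% with the main filter, and the other named genes did not reach the filter at 50. The number was 6 with upper-quartile scaling (2.67%), which loses Tpx2, and with quantile normalization (2.76%), which loses Birc5. With the replicate number as a block in place of age, 0 genes passed and the median was again −0.46; it changed no call. For age no block was possible because age follows the number. The number of genes past the threshold was 14 at 14 months alone, 39 without replicate 2 and 0 to 5 with 1 heart left out. Of the cell cycle genes 1 passed without replicate 2, Mki67 (−1.31, limma adjusted p = 0.0238), with 1 residual degree of freedom.

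For age, Pcna passed under every alternative run. It was the 1 cell cycle gene that passed with quantile normalization; without the trend and robust options Cdk1 passed with it and Mcm3 and Mcm4 were lost, and with no filter Mcm4 was lost. With 1 heart left out 1 to 4 genes passed, among them Top2a, Anln, Kif23, Mcm7, Prc1 and Cenpe, each in 1 such fit; 3011 genes passed without replicate 2, and 3246 to 4533 with 1 heart left out. The interaction passed 4 genes with no filter, 12 with quantile normalization, 7 without the trend and robust options, 559 with limma-voom and 13 to 234 with 1 heart left out. limma-voom passed 1 cell cycle gene there, Cenpe (−2.75, limma adjusted p = 0.0464).

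With 3 hearts per genotype and a median SE of 0.35 for genes under 50, small differences of the low genes were not detectable. Large ones did not pass either, as with Bub1 at −2.14, Cdk1 at −1.39 and Ccnb1 at −1.36. A gene without a call may therefore still differ. The counts of genes below 0 and of groups without overlap and the medians by role were added to the alternatives after the data were seen.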
